A study of Mus musculus with 11 samples.

Results

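Transcription factors that set up and maintain the myeloid lineage were followed in CD11b-positive cells of irradiated mouse tumours. The set holds 9 genes listed by symbol, and earlier results of these data were known when it was chosen. Its members are Sfpi1 (the older symbol of Spi1, which encodes PU.1), Cebpa, Cebpb, Cebpd, Klf2, Klf4, Maf, Runx1 and Zeb2. All 9 are among the 22068 symbols of the files, and all 9 were among the 10557 genes whose average over all libraries reached 1 RPKM. RPKM divides the reads of a gene by its transcript length and by the mapped reads of the library, so levels can be set side by side between genes.

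RNA of 11 samples was sequenced. Each sample is myeloid cells taken directly from a subcutaneous tumour 4 days after 15 Gy of local irradiation, enriched with CD11b antibodies and magnetic beads, and not cultured. The hosts were C57BL/6 mice that were wild type (WT, n = 3), lacked the DNA-sensing receptor gene Tlr9 (TLR9KO, n = 4) or carried MxCre with floxed Stat3 alleles (STAT3KO, n = 4). The groups share the subcutaneous site, the dose and the day, and no unirradiated sample was analysed here. MxCre is driven by the interferon-inducible Mx1 promoter, which is not limited to myeloid cells, so other cells of the STAT3KO host can carry the deletion. The sources used here do not give the tumour line, the ages of the mice or whether animals were pooled. It is also not stated that replicates are separate animals, so a p-value reflects the scatter of these samples, part of which may be technical.

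PU.1 is an ETS factor required for the formation of macrophages, neutrophils and B cells, and it opens many myeloid enhancers. C/EBP factors are leucine-zipper proteins: C/EBP alpha is needed for the granulocyte-monocyte progenitor, while C/EBP beta and C/EBP delta are known for emergency granulopoiesis and inflammatory gene expression, and Cebpd is a textbook target of STAT3 in several tissues. RUNX1 is needed for blood stem cells to arise in the embryo, and it binds DNA together with its partner CBF beta. KLF2 and KLF4 are zinc-finger factors that restrain inflammatory activation, and KLF4 promotes monocyte formation. c-MAF drives Il10 and other genes of resident-type macrophages, and ZEB2 is a repressor that guides monocyte and dendritic cell fates.

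Promoter sequences from 250 bases before to 50 bases after the annotated start came from RefSeq for GRCm38.p6, and 6 of the 9 genes had an entry, with 10 promoters between them. Sfpi1, Cebpd and Maf had no entry. The files were made on mm9, so these coordinates are not those of the files. Klf4, Runx1 and Cebpa are shown because their levels differed between groups, and Zeb2 because it alone among these promoters holds the STAT letters. Capitals mark every match on either strand to TTCNNNGAA (the STAT site), GGGCGGG (the GC box), CACGTG (the E-box) or TTGCGCAA (the C/EBP site). Each sequence runs 5′ to 3′ on the strand of the gene.
Klf4, chr4:55532426-55532725, minus strand: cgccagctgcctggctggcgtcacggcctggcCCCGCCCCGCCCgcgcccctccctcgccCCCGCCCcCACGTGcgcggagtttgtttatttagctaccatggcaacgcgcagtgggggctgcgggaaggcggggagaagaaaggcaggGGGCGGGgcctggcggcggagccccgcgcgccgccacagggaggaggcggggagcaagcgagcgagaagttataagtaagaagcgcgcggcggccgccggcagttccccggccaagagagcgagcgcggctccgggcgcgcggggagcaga
Runx1 distal, chr16:92826025-92826324, minus strand: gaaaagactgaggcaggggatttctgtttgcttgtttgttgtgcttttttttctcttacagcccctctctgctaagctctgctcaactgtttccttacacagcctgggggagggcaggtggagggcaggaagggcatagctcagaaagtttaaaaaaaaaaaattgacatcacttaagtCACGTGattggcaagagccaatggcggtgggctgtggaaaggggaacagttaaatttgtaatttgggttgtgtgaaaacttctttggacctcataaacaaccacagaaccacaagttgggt
Runx1 proximal, chr16:92697280-92697579, minus strand: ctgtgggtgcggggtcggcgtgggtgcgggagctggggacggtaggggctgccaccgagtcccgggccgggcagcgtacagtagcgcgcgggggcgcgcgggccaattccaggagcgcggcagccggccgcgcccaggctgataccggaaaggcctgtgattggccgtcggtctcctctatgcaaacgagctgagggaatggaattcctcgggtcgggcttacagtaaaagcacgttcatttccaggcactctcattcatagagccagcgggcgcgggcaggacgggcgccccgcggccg
Cebpa, chr7:35119043-35119342, plus strand: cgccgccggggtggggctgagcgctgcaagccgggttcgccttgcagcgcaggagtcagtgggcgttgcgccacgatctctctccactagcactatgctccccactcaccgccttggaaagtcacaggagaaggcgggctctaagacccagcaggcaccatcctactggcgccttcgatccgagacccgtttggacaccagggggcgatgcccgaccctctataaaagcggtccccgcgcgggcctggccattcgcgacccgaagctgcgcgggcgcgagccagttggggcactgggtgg
Zeb2, chr2:45113230-45113529, minus strand: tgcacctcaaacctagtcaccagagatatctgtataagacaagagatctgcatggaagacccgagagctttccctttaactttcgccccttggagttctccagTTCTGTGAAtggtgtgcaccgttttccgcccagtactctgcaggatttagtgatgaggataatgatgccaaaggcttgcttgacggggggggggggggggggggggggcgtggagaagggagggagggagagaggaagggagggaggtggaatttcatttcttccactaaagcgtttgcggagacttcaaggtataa

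The Klf4 promoter holds 4 GC boxes and 1 E-box. Of its GC boxes, 3 lie on the opposite strand, beginning 218, 213 and 190 bases before the start, and those at 218 and 213 share 2 letters. The GC box on the strand of the gene begins 101 bases before the start, and the E-box 182 bases before it. The distal Runx1 promoter holds an E-box 71 bases before the start and has a GC content of 45.0%, while the proximal one holds none of the 4 motifs and has a GC content of 69.0%. No match was found in the Cebpa promoter. TTCTGTGAA stands 147 bases before the start shown for Zeb2, and the same site falls in the window of another Zeb2 start, 173 bases before it. Over all 32851 promoters of the table, 8.3% held the STAT site, 25.6% the GC box, 7.15% the E-box and 0.183% the C/EBP site. These matches are letters in a window and not measured binding sites.

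The libraries held between 30.0 and 53.45 M reads, estimated from the steps of the RPKM values of short genes, and the member with the fewest reads, Cebpd, had at least 219 reads per kilobase in each. Stat3 was 18.2 ± 1.85 RPKM (SD, n = 4) in STAT3KO against 73.1 ± 2.78 (n = 3) in WT, which is 24.9% (limma adjusted p = 2.44e-06), and Tlr9 was 5.77 ± 1.72 in TLR9KO (n = 4) against 30.3 ± 10.6 in WT, which is 19.0% (adjusted p = 0.00193). The mean correlation of a library with its own group ranged from 0.974 to 0.988. Itgam, which encodes CD11b, was abundant, at 301 ± 10.5 RPKM in WT, 242 ± 62.9 in TLR9KO and 218 ± 18.2 in STAT3KO. Neutrophil markers summed to 716 RPKM in STAT3KO replicate 2 and to between 101 and 131 in the other STAT3KO libraries. Fibroblast markers summed to between 2.22 and 4.55 RPKM in WT, 11.7 and 43.3 in TLR9KO and 15.6 and 31.0 in STAT3KO. Genes of melanocytes were present in every library, with sums from 454 to 1446 RPKM and no called difference among the 7 tested. These are bulk samples, so fewer cells of a type and less RNA per cell cannot be told apart.

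PU.1 led the set in each group. Averaged over the 11 libraries, Sfpi1 stood at 260 RPKM, higher than 97.6% of the tested genes, and Cebpb followed at 155 RPKM. Cebpa at 71.6, Klf4 at 62.5, Klf2 at 58.4 and Maf at 47.9 RPKM formed the middle of the set, with Zeb2 at 29.1 and Runx1 at 16.1 RPKM below them. Cebpd was the lowest at 9.02 RPKM, near the middle of all tested genes. In WT the ranges of Cebpa, Klf2, Klf4, Maf, Zeb2 and Runx1 each overlapped the next in this order, so those neighbours did not differ beyond their spread, while Sfpi1, Cebpb and Cebpd stood apart. In TLR9KO, Klf4 was the third highest at 92.4 RPKM and did not overlap Maf, the next below it. In STAT3KO it was the sixth at 39.2 RPKM, with a range that overlapped those of its neighbours Maf and Zeb2.

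**Figure D1:**
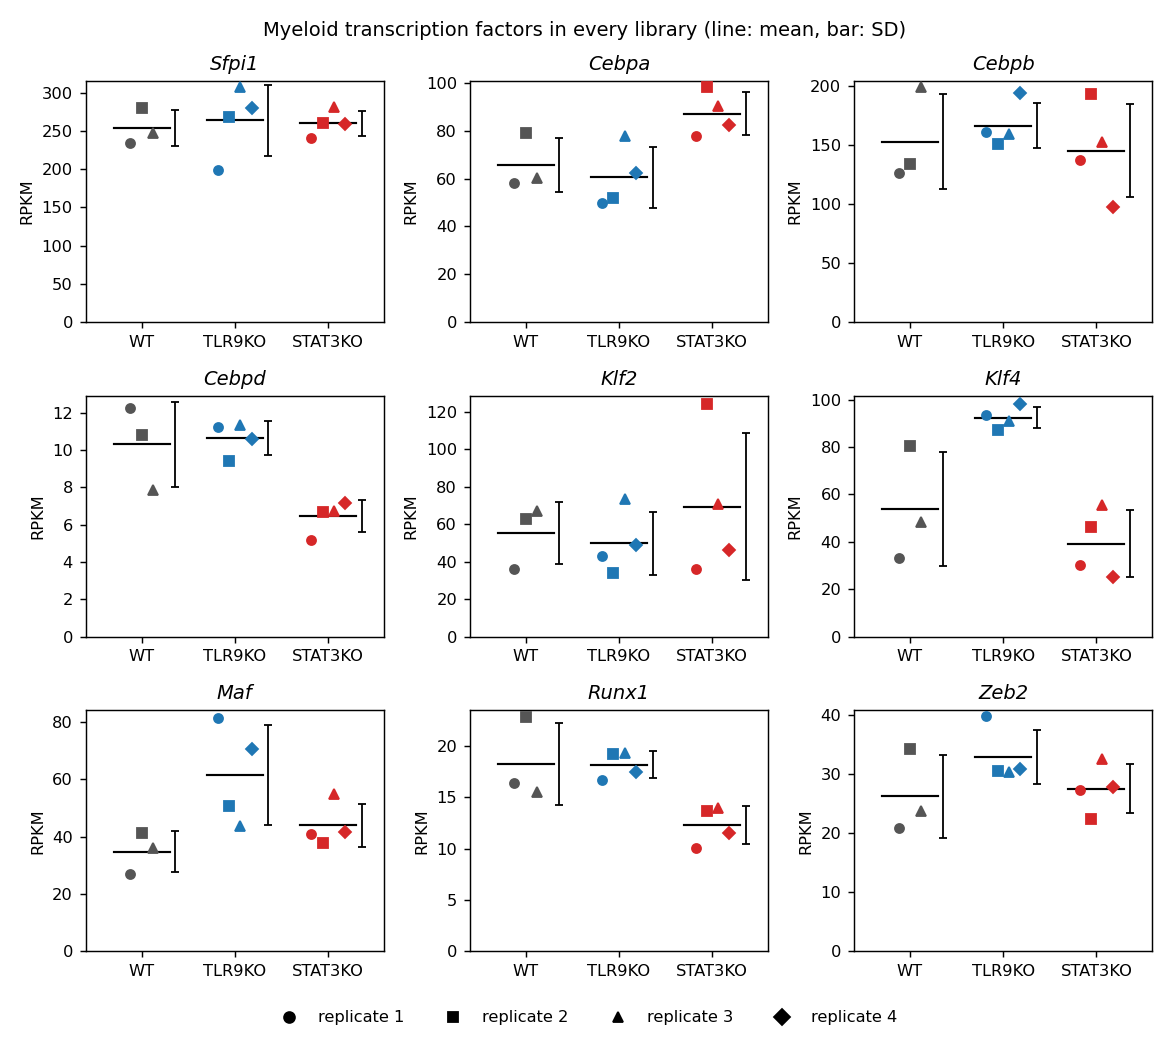
Level of each of the 9 transcription factors in RPKM (y axis, from 0) in the 11 libraries, grouped as WT, TLR9KO and STAT3KO; each point is a library, its shape the replicate number, the line the group mean and the bar the SD. Cebpd and Runx1 are lower in each STAT3KO library than in any other library, and Klf4 lies between 87.1 and 98.0 RPKM in the 4 TLR9KO libraries, above each of the others.

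Differences between groups were tested with limma on log2(RPKM + 1) over the 10557 genes, with Benjamini-Hochberg adjustment over all of them and a threshold of 0.05. Between STAT3KO and WT, none of the 9 factors rose and 2 fell, Cebpd and Runx1. Of all tested genes 29.2% rose and 14.8% fell in that comparison. Between TLR9KO and WT, Klf4 and Maf rose and none fell, where 20.0% of all genes rose and 10.6% fell. Between STAT3KO and TLR9KO, Cebpa rose while Cebpd, Klf4 and Runx1 fell, where 13.4% of all genes rose and 9.46% fell. The groups did not overlap for 2, 2 and 3 of the 9 factors, in that order, against 47.7%, 36.1% and 27.0% of all genes. The median log2 difference over the 9 was 0.04, 0.06 and -0.25, beside 0.09, 0.04 and 0.06 over all tested genes. Both knockouts are compared with the same 3 WT libraries, so these comparisons are not independent.

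**Figure D2:**
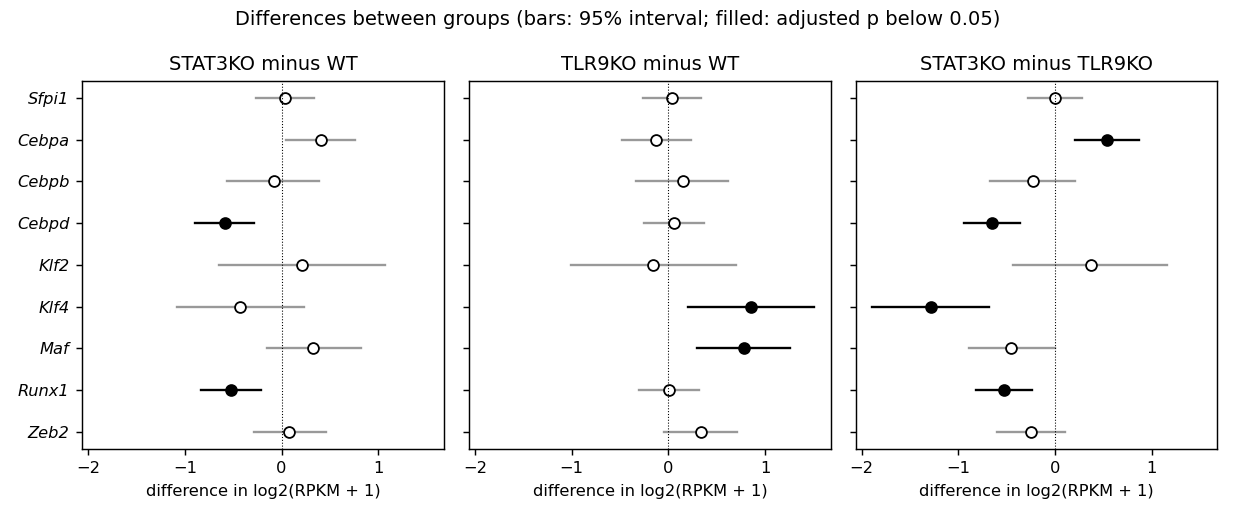
Difference in mean log2(RPKM + 1) between groups (x axis) for each factor (y axis) in the 3 comparisons, with the 95% interval as a bar and a filled point where the limma adjusted p is below 0.05. Cebpd and Runx1 lie left of 0 in both comparisons of STAT3KO, and Klf4 lies at 0.86 in TLR9KO minus WT and at -1.28 in STAT3KO minus TLR9KO.

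Among the C/EBP factors, Cebpd was lower without Stat3. Its levels were 12.2, 10.8 and 7.83 RPKM in WT, 11.2, 9.39, 11.3 and 10.6 in TLR9KO, and 5.20, 6.69, 6.71 and 7.17 in STAT3KO. All 4 STAT3KO libraries lay below all 7 others, and the ranges of WT and TLR9KO overlapped. Cebpd fell to 62.6% of WT, a log2 difference of -0.59 ± 0.14 (SE; adjusted p = 0.00639), and to 60.5% of TLR9KO, -0.65 ± 0.13 (adjusted p = 0.00649). Both calls held under all 22 alternatives, with adjusted p up to 0.0444 and 0.0227. TLR9KO minus WT was 0.06, with a 95% interval from -0.25 to 0.37 (adjusted p = 0.776).

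Cebpa, the C/EBP factor of progenitors, had its highest mean in STAT3KO. It measured 58.2, 78.8 and 60.2 RPKM in WT, 49.8, 51.9, 77.9 and 62.3 in TLR9KO, and 77.8, 98.2, 90.3 and 82.4 in STAT3KO. The STAT3KO range overlapped that of WT through WT replicate 2, and narrowly that of TLR9KO through TLR9KO replicate 3. Cebpa rose to 144% of TLR9KO, a log2 difference of 0.54 ± 0.15 (adjusted p = 0.0261). Against WT it was at 133%, 0.41 ± 0.16, which missed the threshold (adjusted p = 0.0597). The rise over TLR9KO was lost with median-ratio scaling (adjusted p = 0.0743), after correction for GC content and length (0.139), and without TLR9KO replicate 1 (0.0579), 2 (0.0741) or 4 (0.0524) or STAT3KO replicate 2 (0.0676) or 3 (0.0553). The difference from WT passed the threshold under 6 of the 22 alternatives, among them without WT replicate 2 (0.0258), without TLR9KO replicate 1 (0.0479) or 3 (0.0263), and with the GC and length correction (0.0478).

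Cebpb, the most abundant of the family, differed more within groups than between them. Its levels were 126, 134 and 199 RPKM in WT, 161, 151, 160 and 194 in TLR9KO and 138, 194, 152 and 97.7 in STAT3KO. All 3 groups overlapped, and the adjusted p was 0.776 for STAT3KO against WT, 0.643 for TLR9KO against WT and 0.431 for STAT3KO against TLR9KO. The 95% intervals of the log2 differences ran from -0.56 to 0.39, -0.33 to 0.62 and -0.67 to 0.21.

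Ratios of the C/EBP factors within single libraries restate the same levels. Cebpd was 0.13 to 0.21 of the level of Cebpa in WT and 0.146 to 0.225 in TLR9KO, and 0.0668 to 0.087 in STAT3KO, with no overlap between STAT3KO and the others. Cebpa over Cebpb was 0.302 to 0.59 in WT, 0.31 to 0.487 in TLR9KO and 0.507 to 0.843 in STAT3KO. That STAT3KO range overlapped WT but not TLR9KO. Cebpb over Cebpd overlapped between all groups, at 10.3 to 25.5, 14.1 to 18.3 and 13.6 to 28.9 in that order. A pair of relatives also differed. Ddit3, which encodes the stress-induced CHOP, rose from 35.2 ± 9.61 RPKM in WT to 68.9 ± 4.96 in STAT3KO (log2 difference 0.98 ± 0.14, adjusted p = 0.000426), and the granulocyte factor Cebpe fell from 10.3 ± 1.96 to 2.06 ± 0.363 (-1.88 ± 0.22, adjusted p = 0.000118). The rise of Ddit3 over WT was lost with the GC and length correction; its rise over TLR9KO (1.00 ± 0.13, adjusted p = 0.000794) was kept under all 22 alternatives. Of the summed RPKM of 6 C/EBP genes, Ddit3 made up 18.9 to 23.7% in STAT3KO against 11.2 to 14.1% in WT, and Cebpd 1.72 to 2.76% against 2.38 to 5.01%.

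**Figure D3:**
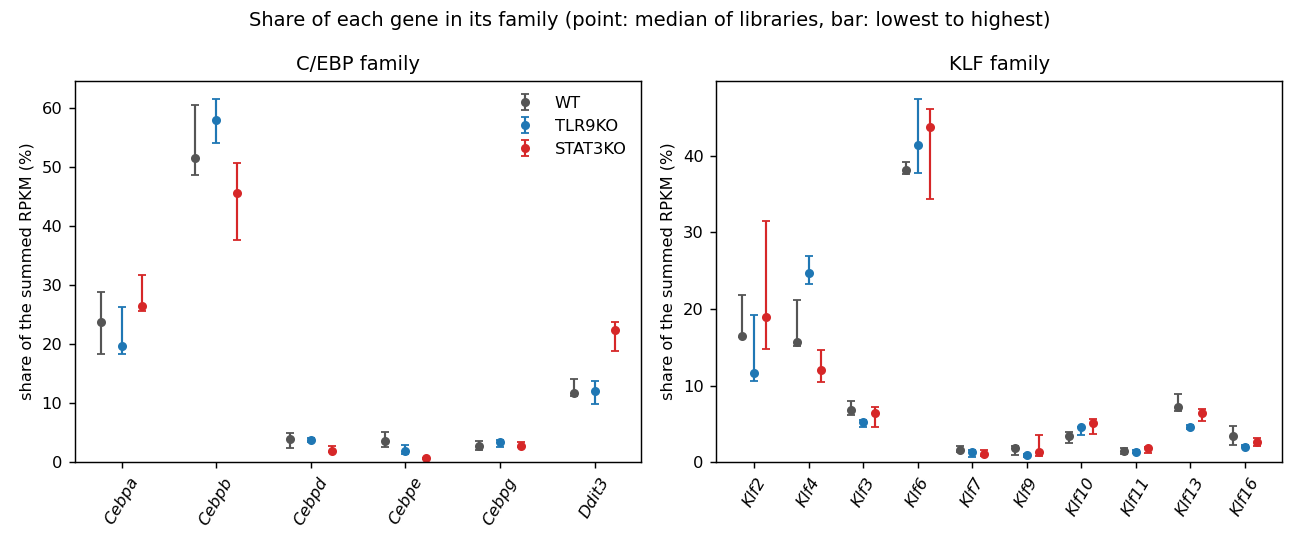
Share of each gene in the summed RPKM of its family (y axis, %) for C/EBP and KLF genes, in WT, TLR9KO and STAT3KO; points are the median of the libraries and bars run from the lowest to the highest library. The share of Ddit3 stands above the other groups in STAT3KO, and that of Klf4 above them in TLR9KO at 23.3 to 26.9%.

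Runx1 was also lower without Stat3. Its levels were 16.4, 22.8 and 15.5 RPKM in WT, 16.7, 19.2, 19.3 and 17.5 in TLR9KO, and 10.1, 13.7, 14.0 and 11.6 in STAT3KO. Every STAT3KO library lay below every WT and TLR9KO library, and WT and TLR9KO had the same mean, 18.2 RPKM. Runx1 fell to 67.5% of WT, a log2 difference of -0.52 ± 0.14 (adjusted p = 0.0123), and to 67.8% of TLR9KO, -0.53 ± 0.13 (adjusted p = 0.0156). Both calls held under all 22 alternatives, with adjusted p up to 0.0445 and 0.0455.

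Its family and its DNA-binding partner were lower in STAT3KO as well. Runx3, which acts in lymphocytes and in dendritic and other myeloid cells, was 29.6, 33.5 and 33.0 RPKM in WT, 21.6, 24.2, 19.4 and 25.1 in TLR9KO and 12.7, 13.1, 15.2 and 12.0 in STAT3KO. The 3 groups did not overlap, with STAT3KO lowest and TLR9KO between. Runx3 fell to 41.3% of WT in STAT3KO (log2 difference -1.22 ± 0.11, adjusted p = 2.19e-05) and to 70.4% in TLR9KO (-0.49 ± 0.11, adjusted p = 0.0058), the latter not kept with the GC and length correction. Runx2, the bone and cartilage factor, was low and fell from 2.50 ± 0.102 to 1.18 ± 0.171 RPKM (-0.69 ± 0.12, adjusted p = 0.000933). Cbfb, which encodes CBF beta, was 27.3 ± 1.28 RPKM in STAT3KO, 34.8 ± 5.71 in WT and 38.9 ± 2.67 in TLR9KO, a fall of -0.49 ± 0.10 against TLR9KO (adjusted p = 0.00533) that all 22 alternatives kept. Its fall against WT (-0.33 ± 0.10, adjusted p = 0.0248) was lost without WT replicate 2 (0.0883) and without STAT3KO replicate 1 (0.059), 3 (0.0506) or 4 (0.0557). The share of Runx1 in the summed RPKM of the 3 RUNX genes was 30.4 to 38.9% in WT, 39.5 to 48.2% in TLR9KO and 41.8 to 48.8% in STAT3KO, so both knockouts lay above WT and overlapped each other. Dendritic cell markers summed to 30.3 to 70.5 RPKM in STAT3KO, 82.0 to 156 in TLR9KO and 141 to 224 in WT, and most of that sum was 1 gene, Itgax, which encodes CD11c and stood at 169 RPKM in WT, 103 in TLR9KO and 37.4 in STAT3KO. Itgax was the 1 of 4 tested markers to fall against WT. Zbtb46, a factor of classical dendritic cells, went the other way, from 1.08 RPKM in TLR9KO to 2.06 in STAT3KO (0.55 ± 0.16, adjusted p = 0.0299, a call lost under 8 of 21 alternatives), and Cd209a and Ccr7 were not called in any comparison. The part of these cells in the RUNX result was not tested.

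Of the 9 factors, Klf4 had the largest difference between the knockouts. Klf4 was 33.1, 80.2 and 48.3 RPKM in WT, 93.3, 87.1, 91.2 and 98.0 in TLR9KO, and 30.1, 46.3, 55.5 and 25.0 in STAT3KO. The 4 TLR9KO libraries lay close together above all others, while WT spread widely and overlapped STAT3KO. In STAT3KO Klf4 was at 42.4% of TLR9KO, a log2 difference of -1.28 ± 0.28 (adjusted p = 0.00872), kept under all 22 alternatives with adjusted p up to 0.028. STAT3KO minus WT was -0.43 ± 0.30 (adjusted p = 0.272).

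The rise of Klf4 in TLR9KO over WT rested on a narrow margin. It reached 171% of WT, a log2 difference of 0.86 ± 0.30 (adjusted p = 0.0488), and passed the threshold in 8 of 22 alternatives, over which the adjusted p ran from 0.00695 to 0.209. Without WT replicate 1, the WT library with the lowest Klf4, the difference was 0.56 (adjusted p = 0.209), and without WT replicate 3 it was 0.83 (0.123). Leaving out TLR9KO replicate 1, 2, 3 or 4 gave adjusted p values of 0.0714, 0.0789, 0.0824 and 0.0939, and leaving out STAT3KO replicate 1 or 2 gave 0.0574 and 0.0538. WT replicate 1 was below its group mean for 8 of the 9 factors, and its estimated depth was the lowest of the 11 libraries. STAT3KO replicate 1 was above its group mean for 0 of the 9 factors at the highest depth, 53.45 M reads. In each group, the library with the fewest factors above its group mean had the highest melanocyte marker sum. These sums were 1446 RPKM in WT replicate 1, 1394 in TLR9KO replicate 2 and 1282 in STAT3KO replicate 1. The part of depth or of melanocyte transcripts in these levels was not tested.

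Klf2, the other KLF factor of the set, varied most within STAT3KO. It was 36.3, 62.5 and 67.3 RPKM in WT, 42.8, 34.2, 73.2 and 48.8 in TLR9KO and 36.2, 124, 70.9 and 46.3 in STAT3KO. The highest value was that of STAT3KO replicate 2, the library with the neutrophil marker sum of 716 RPKM, and the groups overlapped throughout. No difference passed the threshold (adjusted p = 0.69, 0.791 and 0.49), and STAT3KO minus WT had a 95% interval from -0.65 to 1.07. Without STAT3KO replicate 2 that difference was -0.12 instead of 0.21; the part of the neutrophil markers in it was not tested. The ratio of Klf4 to Klf2 within a library was 0.718 to 1.28 in WT and 0.374 to 0.829 in STAT3KO, which overlap, and 1.25 to 2.55 in TLR9KO, which overlaps WT but not STAT3KO.

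Maf had its highest mean in TLR9KO. It measured 27.0, 41.3 and 36.2 RPKM in WT, 81.4, 50.7, 43.6 and 70.6 in TLR9KO, and 41.0, 38.0, 55.0 and 41.8 in STAT3KO. All TLR9KO libraries lay above all WT libraries, and the STAT3KO range overlapped both. Maf rose to 177% of WT in TLR9KO, a log2 difference of 0.78 ± 0.22 (adjusted p = 0.02). The call was lost without WT replicate 1 (0.62, adjusted p = 0.0956), without TLR9KO replicate 4 (0.70, adjusted p = 0.052) and with a replicate block (0.75, adjusted p = 0.0647). STAT3KO minus WT was 0.33 ± 0.22 (adjusted p = 0.242) and STAT3KO minus TLR9KO -0.45 ± 0.20 (adjusted p = 0.133). TLR9KO replicate 1, with the highest Maf, also had the highest fibroblast marker sum, 43.3 RPKM, and the part of those cells was not tested; without that library the rise of Maf kept its call. Maff, a small MAF protein without an activation domain, fell from 18.6 RPKM in WT to 8.14 in STAT3KO (-1.12 ± 0.19, adjusted p = 0.00081).

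**Figure D4:**
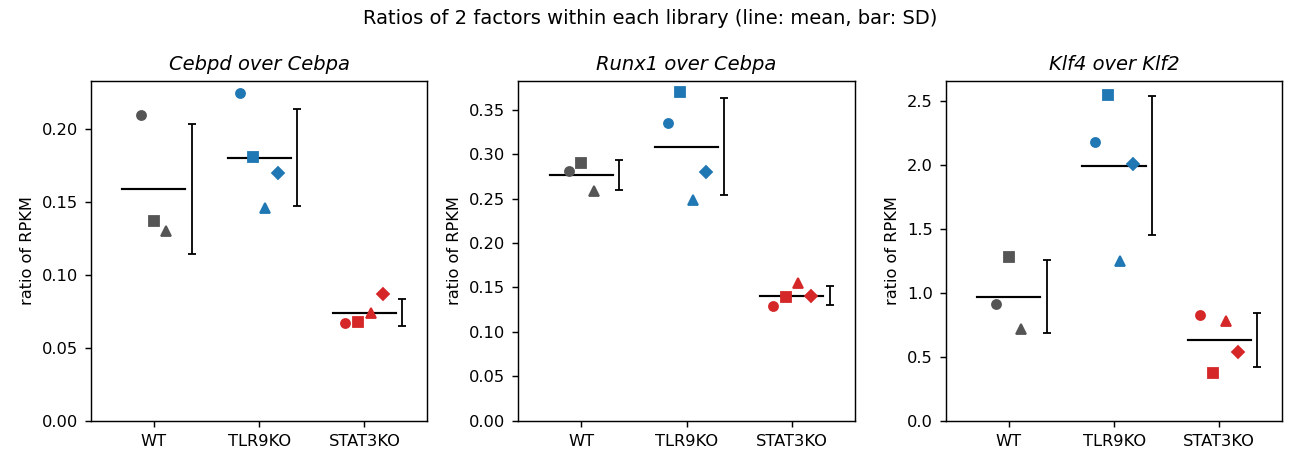
Ratio of the RPKM of a pair of factors within each library (y axis, from 0) in WT, TLR9KO and STAT3KO, with the mean as a line and the SD as a bar; point shapes are replicate numbers as in the plot of levels by library. Cebpd over Cebpa and Runx1 over Cebpa are lower in each STAT3KO library than in any other, and Klf4 over Klf2 has its highest mean in TLR9KO, where 1 library overlaps WT.

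PU.1 itself showed no called difference. Sfpi1 was 235, 279 and 247 RPKM in WT, 199, 269, 307 and 280 in TLR9KO, and 241, 260, 281 and 260 in STAT3KO. All groups overlapped, and both the lowest and the highest value were in TLR9KO. The log2 differences were 0.04 (95% interval -0.26 to 0.34) for STAT3KO minus WT, 0.04 (-0.26 to 0.34) for TLR9KO minus WT and 0.00 (-0.28 to 0.28) for STAT3KO minus TLR9KO. Its relative Spic, which encodes a factor of iron-recycling red pulp macrophages, rose from 0.513 ± 0.178 RPKM in WT and 0.723 ± 0.327 in TLR9KO to 4.77 ± 1.81 in STAT3KO (log2 difference from WT 1.89 ± 0.22, adjusted p = 9.96e-05). Its 4 STAT3KO values were 7.43, 3.80, 3.48 and 4.35 RPKM, all above the highest other library at 1.06. Spic reached at most 2.99% of the summed RPKM of Sfpi1, Spib and Spic in any library.

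Zeb2 was 20.9, 34.2 and 23.7 RPKM in WT, 39.8, 30.5, 30.5 and 30.8 in TLR9KO and 27.3, 22.4, 32.6 and 27.9 in STAT3KO. The groups overlapped, and no difference passed the threshold (adjusted p = 0.717 for STAT3KO minus WT, 0.16 for TLR9KO minus WT and 0.274 for STAT3KO minus TLR9KO). TLR9KO minus WT, at 0.34 ± 0.17, became a call without WT replicate 2 (0.54, adjusted p = 0.023) and with library weights (0.43, adjusted p = 0.0194). Zeb1, its close relative, stayed below 1 RPKM in each library.

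**Figure D5:**
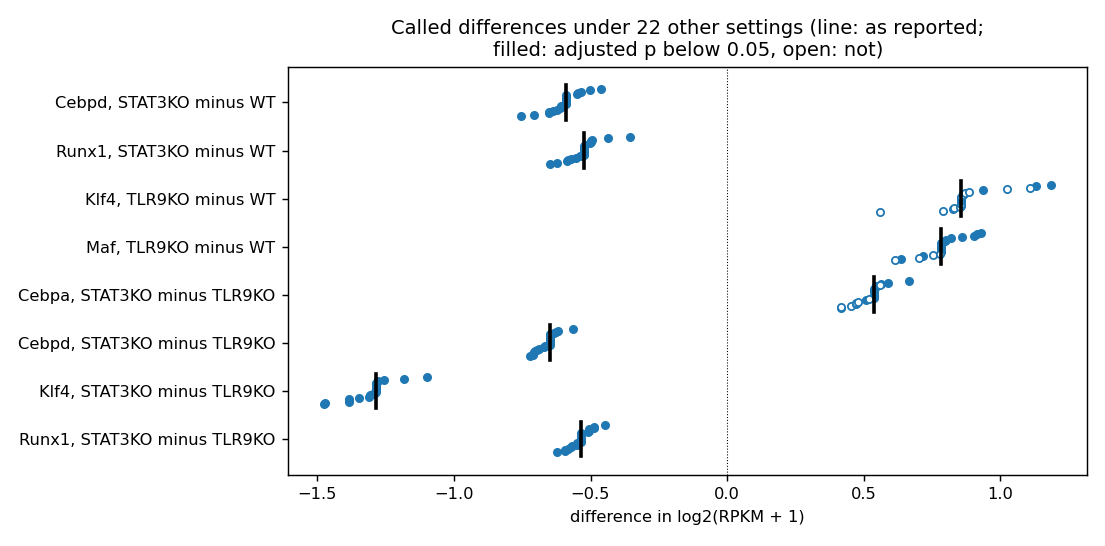
The 8 called differences of the 9 factors (y axis) as the difference in log2(RPKM + 1) (x axis), with the reported value as a line and the 22 alternative settings as points, filled where the adjusted p is below 0.05. The falls of Cebpd, Runx1 and Klf4 involving STAT3KO stay filled throughout, and Klf4 in TLR9KO minus WT is filled in 8 of the 22.

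The wider families held 25 listed relatives, of which 19 were tested. In STAT3KO against WT, 3 rose (Spic, Ddit3 and Klf10) and 7 fell, among them Cebpe, Maff, Runx2, Runx3 and Cbfb, with a median log2 difference of -0.14 beside 0.09 over all genes; these are 15.8% and 36.8% of the relatives tested, where 29.2% of all genes rose and 14.8% fell. In TLR9KO against WT, Klf10 rose and 4 fell (Cebpe, Klf16, Runx2 and Runx3), 5.26% and 21.1% of the relatives tested. Of all genes 20.0% rose and 10.6% fell there. None of these 5 relatives was called with the GC and length correction. Without WT replicate 1, 1 relative was called, and without TLR9KO replicate 3, 2 were. In STAT3KO against TLR9KO, 2 rose (Spic and Ddit3) and 5 fell (Cebpe, Maff, Runx2, Runx3 and Cbfb). These were 10.5% and 26.3% of the relatives tested, beside 13.4% and 9.46% of all genes. The smaller Runx2 differences were the least stable: the fall in STAT3KO against TLR9KO (-0.33) was lost under 13 of 21 alternatives, among them each library left out except TLR9KO replicate 3 (adjusted p from 0.0522 to 0.127), and that in TLR9KO against WT (-0.36) under 14 of 21. The fall of Maff between the knockouts was lost without TLR9KO replicate 4. Klf10, a TGF-beta-induced repressor, was 9.87 RPKM in WT and 15.9 in TLR9KO (0.66 ± 0.16, adjusted p = 0.0108); without WT replicate 1 its adjusted p was 0.0525.

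Other haematopoietic transcription factors, 24 tested of 31 listed, moved in both directions. In STAT3KO against WT 8 rose and 8 fell, in TLR9KO against WT 5 rose and 4 fell, and in STAT3KO against TLR9KO 4 rose and 7 fell. The rises were 33.3%, 20.8% and 16.7% of the list, near the 29.2%, 20.0% and 13.4% of all genes, and the falls 33.3%, 16.7% and 29.2%, where 14.8%, 10.6% and 9.46% of all genes fell. The 9 calls of TLR9KO became 3 with the GC and length correction, and the 11 between the knockouts became 6 without TLR9KO replicate 4 or STAT3KO replicate 1 and 7 without STAT3KO replicate 4. Nr4a1, the factor of patrolling Ly6C-low monocytes, fell from 176 RPKM in WT to 60.1 in STAT3KO (-1.57 ± 0.22, adjusted p = 0.000337), and Bhlhe40, a circadian and cytokine-responsive repressor, from 213 to 84.7 (-1.33 ± 0.19, adjusted p = 0.00034). Nfil3, a leucine-zipper factor, fell from 145 to 57.4 RPKM (-1.35 ± 0.18, adjusted p = 0.000232), and the retinoid receptor gene Rxra from 45.0 to 24.0 (-0.88 ± 0.09, adjusted p = 6.11e-05). Id2, an inhibitor of E proteins that dendritic cells need, was 132 RPKM in WT and 192 in TLR9KO (0.52 ± 0.11, adjusted p = 0.00485), and fell to 111 in STAT3KO against TLR9KO (-0.78 ± 0.10, adjusted p = 0.000707). The rise of Id2 in TLR9KO was lost with the GC and length correction. Irf8, the monocyte and dendritic cell factor, was 102 RPKM in WT, 97.2 in TLR9KO and 94.1 in STAT3KO, with no call.

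Genes known to depend on PU.1, 23 tested of 24 listed, rose in 7 cases and fell in 2 between STAT3KO and WT, with a median log2 difference of 0.19 beside 0.09 over all genes. The rises were 30.4% and the falls 8.70% of the list, near or below the 29.2% and 14.8% of all genes. In TLR9KO against WT 1 rose and none fell, where 20.0% of all genes rose and 10.6% fell. In STAT3KO against TLR9KO 2 rose and 1 fell, 8.7% and 4.35% of the list beside 13.4% and 9.46% of all genes. Of these calls between the knockouts, 1 was left without TLR9KO replicate 2 or 4. Msr1, the scavenger receptor A gene, rose from 59.4 RPKM in WT to 156 in STAT3KO (1.38 ± 0.12, adjusted p = 2.18e-05) and to 128 in TLR9KO (1.08 ± 0.12, adjusted p = 0.000248). Tyrobp, the DAP12 adaptor, rose from 440 to 970 RPKM in STAT3KO (1.13 ± 0.19, adjusted p = 0.000852), while the kinase gene Fgr fell from 59.6 to 23.1 (-1.38 ± 0.27, adjusted p = 0.00206). The 9 calls in STAT3KO against WT became 4 without WT replicate 1, and the 1 call in TLR9KO became 6 without TLR9KO replicate 1 and 3 without WT replicate 2. Macrophage markers, which share 5 genes with this list, rose in 10 of 14 and fell in 1 between STAT3KO and WT, with sums of 8564 to 12361 RPKM against 4911 to 5998; their part in the PU.1 list was not tested. Those 11 macrophage calls became 6 with median-ratio scaling and 5 without WT replicate 1.

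Genes known to depend on C/EBP factors, 16 tested of 20 listed, included 1 rise and 4 falls in STAT3KO against WT, 2 falls in TLR9KO against WT and 3 falls in STAT3KO against TLR9KO. Against WT in STAT3KO these were 6.25% and 25.0% of the list, where 29.2% of all genes rose and 14.8% fell. The falls were 12.5% in TLR9KO against WT and 18.8% in STAT3KO against TLR9KO, where 10.6% and 9.46% of all genes fell. The median log2 difference was 0.32 for STAT3KO minus WT beside 0.09 over all genes and 0.39 for STAT3KO minus TLR9KO beside 0.06, unlike the calls. For TLR9KO minus WT it was -0.11 beside 0.04. These medians take in STAT3KO replicate 2, where some neutrophil markers stood far above the other STAT3KO libraries and others did not. The neutrophil markers Ngp and Lcn2 were 94.96 and 57.95 RPKM there, and at most 0.3 and 1.09 in the other STAT3KO libraries. Csf3r was lowest there, at 12.98 RPKM beside 16.14, 29.63 and 26.03 in STAT3KO replicates 1, 3 and 4. Cxcr2 was 1.09 RPKM there and 1.14 in STAT3KO replicate 4. The medians without that library were not computed. The 2 calls of TLR9KO became 1 with the GC and length correction and without WT replicate 1 or 2 or TLR9KO replicate 3. Lyz2, the lysozyme gene of monocytes and macrophages, rose from 2411 to 5257 RPKM (1.15 ± 0.25, adjusted p = 0.00385). Ptgs2, which encodes cyclooxygenase 2, fell from 43.1 RPKM in WT to 16.1 in STAT3KO (-1.42 ± 0.30, adjusted p = 0.00326), and was 71.1 in TLR9KO. Il6 fell from 5.37 RPKM in WT to 1.02 in STAT3KO (-1.66 ± 0.27, adjusted p = 0.000812). The LPS co-receptor gene Cd14 fell from 351 to 180 RPKM (-0.95 ± 0.22, adjusted p = 0.00492), and Cebpe, described above, was the other to fall. The neutrophil gene S100a9 was 9.31, 2.07 and 13.8 RPKM in WT and 14.0, 150, 18.1 and 23.0 in STAT3KO, where replicate 2 stood far above the others, and did not pass the threshold (adjusted p = 0.0521). Of 12 tested neutrophil markers none rose and 2 fell in that comparison, Il1r2 and Trem1, and without STAT3KO replicate 1 there were 4 calls. The falls were 16.7% of these markers, near the 14.8% of all genes.

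KLF2 and KLF4 target genes, 9 tested of 10 listed, gave 1 rise and 4 falls in STAT3KO against WT, no rise and 4 falls in TLR9KO against WT, and 3 rises and 2 falls in STAT3KO against TLR9KO. The falls against WT were 44.4% of the list in each knockout, where 14.8% and 10.6% of all genes fell. Between the knockouts 33.3% of the list rose and 22.2% fell, beside 13.4% and 9.46% of all genes. A list of 9 genes sets these shares coarsely. The median log2 differences were -0.34, -0.38 and -0.23, beside 0.09, 0.04 and 0.06 over all genes. Thbd, which encodes thrombomodulin and is activated by KLF2 and KLF4 in endothelium, was 15.3 RPKM in WT, 7.40 in TLR9KO and 4.72 in STAT3KO. Its fall against WT was -1.51 ± 0.31 in STAT3KO (adjusted p = 0.00273) and -1.11 ± 0.31 in TLR9KO (adjusted p = 0.02), the latter lost with the GC and length correction, without WT replicate 3 (0.069) and without TLR9KO replicate 2 (0.0522). The inhibitor of cell division Cdkn1a fell from 496 RPKM in WT to 326 in STAT3KO (-0.60 ± 0.10, adjusted p = 0.000952). No TLR9KO minus WT call of this list was left with the GC and length correction or without WT replicate 3, and 2 were left without TLR9KO replicate 2 or 3.

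MAF-dependent macrophage genes, 14 tested of 15 listed, rose in 9 cases and fell in 1 between STAT3KO and WT, with a median log2 difference of 0.81 beside 0.09. The rises were 64.3% of the list, where 29.2% of all genes rose. Macrophage markers, which share 5 genes with this list, rose in 10 of 14 and fell in 1 in the same comparison, and their part in it was not tested. In TLR9KO against WT, where Maf itself rose, 2 rose and none fell, with a median of 0.42 beside 0.04. Those 2 rises were 14.3% of the list, below the 20.0% of all genes that rose. In STAT3KO against TLR9KO 3 rose and 1 fell, 21.4% and 7.14% of the list beside 13.4% and 9.46% of all genes. Folr2, a folate receptor of resident macrophages, rose from 46.1 RPKM in WT to 126 in STAT3KO (1.41 ± 0.29, adjusted p = 0.0026), and the biliverdin reductase gene Blvrb from 65.1 to 141 (1.12 ± 0.17, adjusted p = 0.000577). Sepp1, a selenium carrier, rose from 239 RPKM in WT to 434 in TLR9KO (0.91 ± 0.20, adjusted p = 0.00717). Mrc1, the mannose receptor, was the one to fall, from 200 RPKM in WT to 108 in STAT3KO (-0.85 ± 0.21, adjusted p = 0.00676). The count of 10 calls between STAT3KO and WT fell to 3 with the GC and length correction and to 5 without WT replicate 3. Neither TLR9KO call, Sepp1 or Blvrb, was kept with the GC and length correction. That of Blvrb (0.51) was lost under 14 of 22 alternatives, 8 of them a single library left out (adjusted p from 0.0528 to 0.169), and the 2 calls became 4 without TLR9KO replicate 1.

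Of 11 listed genes bound by RUNX1 in myeloid cells 6 were tested. In STAT3KO against WT none rose and 3 of the 6 fell, where 29.2% of all genes rose and 14.8% fell. In TLR9KO against WT none was called, where 20.0% of all genes rose and 10.6% fell. In STAT3KO against TLR9KO none rose and 1 fell, 16.7% of those tested beside 9.46% of all genes. That gene was Cbfb, which was also counted among the family relatives. Cbfa2t3, a corepressor of the ETO family, fell from 9.82 RPKM in WT to 3.48 in STAT3KO (-1.26 ± 0.30, adjusted p = 0.00568), and the other falls against WT were Itgam and Cbfb. The fall of Itgam (-0.47 ± 0.17, adjusted p = 0.0416) was kept by 10 of 22 alternatives and was lost on leaving out any WT or STAT3KO library (adjusted p from 0.0575 to 0.109), and 1 of the 3 calls was left without WT replicate 2 or STAT3KO replicate 1, 3 or 4. Csf1r, the M-CSF receptor gene, was 334 RPKM in WT, 262 in TLR9KO and 283 in STAT3KO, with no call. Among 4 tested of 10 listed genes repressed by ZEB2, Cdh1, which encodes E-cadherin, fell from 19.2 RPKM in WT to 7.26 in TLR9KO (-1.37 ± 0.30, adjusted p = 0.00703) and 0.850 in STAT3KO (-3.42 ± 0.30, adjusted p = 2.44e-05), without a called difference of Zeb2. Id2, described above, also stood on that list.

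For each factor with a called difference, the 7351 genes averaging 5 RPKM or more were ranked by the root mean square difference of their centred log2 profiles over the 11 libraries. Among the closest to Cebpd were Casp6 (0.165) and E2f8 (0.166), and the closest to Runx1 were Ripk2 (0.114), E2f8 (0.116) and Hnrnpa3 (0.119). Those closest to Cebpa were Sh2b3 (0.133), Tns3 (0.141) and Gps2 (0.144), and among the closest to Maf were Rbms1 (0.178) and Impact (0.187). Klf4 had more distant neighbours, A630033H20Rik (0.282), Gm6377 (0.308) and Sh3bgrl (0.32), beside a root mean square deviation of 0.675 of Klf4 around its own mean. E2f8 was close to both Cebpd and Runx1, with means of 6.96 RPKM in WT, 7.03 in TLR9KO and 4.76 in STAT3KO.

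The split of calls over all genes moved with the scaling. With median-ratio scaling the median log2 difference of all genes went from 0.09 to -0.02 for STAT3KO minus WT, and 48.7% of its calls were rises instead of 66.3%. The share of rises went from 65.3% to 52.1% for TLR9KO minus WT and from 58.5% to 43.6% for STAT3KO minus TLR9KO. Across genes, the differences also followed GC content and transcript length. Spearman correlations with GC content were -0.244, -0.552 and 0.299 in the 3 comparisons in the order above. With length they were -0.296, -0.157 and -0.256, and genes are not independent replicates in either. Relative to the shift of all genes, Cebpd and Runx1 remained called as lower in STAT3KO under both the scaling and the GC and length correction.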

How the data were processed

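Total RNA of CD11b-enriched tumour myeloid cells was sequenced on Illumina libraries, per the labels. Partek, Bowtie 0.12.7, TopHat 1.3.1 and CASAVA 1.7 are listed in the submitters' processing notes, with the build mm9 and no roles. The authors deposited 1 RPKM value per gene symbol and library, per the file headers; for TLR9KO replicate 4 the header lacks the unit, and the file was read as RPKM because its numbers look like the rest. Whether reads were counted by strand is not given in the sources used here, so reads of antisense transcripts cannot be told apart from those of a factor. RPKM keeps no counts. Depth was estimated as the library size that makes low microRNA values whole reads (within 0.15), which held for 74.4 to 97.1% of them.

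Values were analysed as log2(RPKM + 1), which understates changes of low genes, with limma 3.58.1 (R 4.3.3; trended variance, 1 fit over all 11 libraries, two-sided, Benjamini-Hochberg over the 10557 genes averaging 1 RPKM or more, threshold 0.05). Summaries used Python 3.11.15, pandas 2.3.3 and numpy 2.4.6, and plots matplotlib 3.10.9. Tested on simulated data with 200 changed genes of 10557, the fit recovered 89% of 2-fold and 99% of 4-fold changes for STAT3KO minus WT, with 5.05% false calls. The simulated noise was independent between genes, without the GC and length trends, scaling shift or large number of changes of the real data. These rates therefore need not hold for the real calls. The alternatives were other pseudocounts (0.1 and 0.5), other filters on low values, median-ratio scaling, library weights, no variance trend, a fit of 2 groups, a GC and length correction (GENCODE M21, 98.8% of genes matched), a replicate block, and each library left out.

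The factors, lists and tests were chosen with earlier results of these data known, and lists are described by counts and medians with no list test. Every factor is named, with Stat3 and Tlr9; of each other list, up to 6 genes with the smallest p; and for each called factor the 3 genes with the most similar profile; a few genes these rules name are not reported here. Klf10, Klf16, Cbfb, Irf8, Spib, Zeb1, Ngp, Lcn2, Cxcr2 and single members of small counts were named after their values were seen.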

Additional observations from a re-analysis of the deposited data

Results flagged for a closer look

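Zeb2 in TLR9KO replicate 1 was 39.81 RPKM, while the other TLR9KO libraries lay between 30.46 and 30.80 RPKM, so its gap to the nearest library made up 0.964 of the range of the group. Of 18 sets of 4 libraries (the 9 factors in TLR9KO and in STAT3KO) this was the 1 set with a gap past the cut-off for a flag. That cut-off, lower than the gap seen here, is passed by chance in about 1 of 20 sets. The same library had the highest Maf and the lowest Sfpi1 of its group, 81.4 and 199 RPKM, and the highest fibroblast marker sum, 43.3 RPKM. Without it, Zeb2 in TLR9KO minus WT was not past the threshold, as with it.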

How the results depend on the processing

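Of 594 values of single factors under the 22 alternatives, 524 kept direction and side of the threshold, 26 lost a call, 10 gained one and 34 changed sign, all of them of uncalled differences. The 2 calls of TLR9KO minus WT became 1 with a pseudocount of 0.1, no filter, median-ratio scaling, no variance trend, the GC and length correction or the replicate block, 0 with the block and GC correction together, and 0 to 3 on leaving out a library (0 without WT replicate 1). The 3229 genes called there became 1654 with the GC and length correction, 1051 with the block added, and 1985 to 3588 on leaving out a library. The 2409 of STAT3KO minus TLR9KO became 3807 with library weights and 1577 (without TLR9KO replicate 4) to 2703 on leaving one out. Replicate numbers did not pair the libraries throughout: 10 same-numbered pairs correlated from -0.291 to 0.492, and 4 were over 0.1. Differently numbered pairs ran from -0.608 to 0.533. All pairs of replicate 1 were positive (0.181, 0.339 and 0.492), and a batch shared by some replicate numbers was not tested. With the replicate block 4074, 2662 and 1879 genes were called in place of 4648, 3229 and 2409. The cause of these changes was not tested. Signs that turned were Sfpi1 with median-ratio scaling (-0.096 against WT in STAT3KO, -0.026 in TLR9KO), Zeb2 in STAT3KO minus WT (-0.045 with median-ratio scaling, -0.024 with the GC correction, -0.01 with block and GC) and, in TLR9KO minus WT, Cebpa (0.143 with GC, and with block and GC), Cebpd (0.00 with median-ratio scaling, -0.016 with library weights), Klf2 (0.014 with GC, 0.074 with block and GC) and Runx1 (-0.052 with median-ratio scaling, -0.033 with GC, -0.006 with block and GC). On leaving out a library, STAT3KO minus WT ran from -0.017 to 0.108 for Sfpi1, -0.236 to 0.12 for Cebpb, -0.118 to 0.464 for Klf2 and -0.06 to 0.284 for Zeb2. TLR9KO minus WT ran from -0.038 to 0.169 for Sfpi1, -0.254 to 0.009 for Cebpa, -0.106 to 0.186 for Cebpd, -0.431 to 0.006 for Klf2 and -0.088 to 0.176 for Runx1, and STAT3KO minus TLR9KO from -0.132 to 0.076 for Sfpi1. With 3 or 4 libraries a group, the widest interval of a factor, that of Klf2 in STAT3KO minus WT, ran from -0.65 to 1.07, and smaller differences were not detectable there.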

Other observations

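Genes of other marker groups were called in the CD11b-enriched cells too. Monocyte markers, 9 tested, rose in 3 cases and fell in 1 in STAT3KO against WT. These were 33.3% and 11.1% of the list, near the 29.2% and 14.8% of all genes. Of the 4 calls, 2 were left with the GC and length correction, and 2 to 4 on leaving out a library. Ly6c2, a surface protein of classical monocytes, went from 201 to 931 RPKM (2.08 ± 0.50, adjusted p = 0.00613). Ms4a4c rose from 35.7 RPKM in WT to 103 in STAT3KO (1.53 ± 0.39, adjusted p = 0.00877) and to 97.1 in TLR9KO (1.49 ± 0.39, adjusted p = 0.0146). Its rise in STAT3KO was lost after correction for GC and length (0.88, adjusted p = 0.0737), and that in TLR9KO both after that correction (0.74, adjusted p = 0.184) and without WT replicate 1 (1.04, adjusted p = 0.0647). Ccr2, the chemokine receptor of those monocytes, was 51.8 RPKM in WT, 95.0 in TLR9KO and 45.5 in STAT3KO, lower in STAT3KO than in TLR9KO (-1.13 ± 0.33, adjusted p = 0.0316). That call, the 1 among the monocyte markers between the knockouts, was lost under 9 of 22 alternatives: without the filter on low values, after correction for GC and length (-0.93, at an adjusted p of 0.0517), with the block added to it, and without TLR9KO replicate 2, 3 or 4 or STAT3KO replicate 1, 2 or 4 (adjusted p from 0.0606 to 0.0825). Trem2, a lipid receptor of macrophages, rose from 110 RPKM in WT to 348 in STAT3KO (1.65 ± 0.12, adjusted p = 1.09e-05) and was 117 in TLR9KO, and Apoe, a lipid carrier, from 635 to 3127 (2.28 ± 0.24, adjusted p = 6.53e-05).

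Collagen genes were low in WT and rose in both knockouts, with 4 of 4 tested fibroblast markers called in each. Of all genes 29.2% rose in STAT3KO and 20.0% in TLR9KO against WT. Col1a1 was 1.11 RPKM in WT, 7.41 in TLR9KO (1.85 ± 0.35, adjusted p = 0.00303) and 9.47 in STAT3KO (2.29 ± 0.35, adjusted p = 0.000496). Of 5 tested erythroid and platelet markers, the haemoglobin genes Hba-a1, Hba-a2 and Hbb-b1 fell in both knockouts against WT. The platelet gene Pf4, also made by macrophages, rose in STAT3KO. Of all genes 14.8% fell in STAT3KO and 10.6% in TLR9KO against WT. The fall of Hbb-b1 in STAT3KO was lost without WT replicate 1 (adjusted p = 0.0633) and without WT replicate 3 (0.0716). With the GC and length correction Hba-a1 and Hba-a2 kept their calls in STAT3KO, and Pf4 lost its call (adjusted p = 0.0514). Hbb-b1 was not among the genes tested with that correction. T and NK cell markers summed to at most 23.9 RPKM and endothelial markers to at most 22.6 in any library, and B cell markers to at most 44.8. Mast cell and basophil markers stayed below 1.33 RPKM in sum, and none was tested.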
